A study of Mus musculus with 8 samples.

Results

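The question was which liver genes respond to a high-fat diet (HFD) differently when hepatocytes lack the nuclear receptor RORα. For each gene the HFD minus control diet (CD) difference in livers of RORα f/f mice was subtracted from the same difference in livers of RORα LKO mice, and the result is called the interaction. It was computed on log2(FPKM + 1), where FPKM is the fragment count scaled by transcript length and by sequencing depth. Only genes with FPKM above 1 in all 8 libraries entered, which were 9839 of the 38283 genes of the deposited table. All mice were male and C57BL/6 by backcrossing. RORα f/f mice carry floxed Rora alleles and no Cre. RORα LKO mice (Alb-cre;RORa f/f) carry the same floxed alleles with Cre driven by the albumin promoter, which acts in hepatocytes. Whether Rora was intact in other liver cells was not measured here. Feeding of the CD, or of an HFD that supplies 60% of energy as fat, began at an age of 8 weeks and lasted 10 weeks. Each library is a pool of liver from 2 animals, so that the 2 libraries of each of the 4 groups stand for 4 animals. Values below are given in the order of the replicate labels, and p values measure the spread between such pools.

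RORα is a nuclear receptor that binds as a monomer to AGGTCA preceded by an A/T-rich stretch and takes part in the circadian clock and in lipid metabolism of the liver. A fat-rich diet of low carbohydrate content can lower hepatic sterol and fatty acid synthesis and acts on genes under insulin, glucocorticoid and fatty acid control. An interaction marks a gene for which this diet response depends on the genotype. The response can be lost in the LKO, gained there, or turned around.

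The genotype labels could not be checked by Rora itself. Its FPKM, which covers the whole gene and not only the floxed exons, was 8.85 and 8.59 in CD-fed f/f libraries, 7.56 and 7.86 in HFD-fed f/f libraries, 7.96 and 8.18 in CD-fed LKO libraries and 7.30 and 8.02 in HFD-fed LKO libraries, so that the genotypes overlapped on HFD. The genotype therefore stands below as the libraries are labelled. Libraries listed 10587 to 10706 genes above an FPKM of 1. Spearman's correlation coefficient over the 9839 genes was 0.987 to 0.989 within groups and 0.970 to 0.986 between them. Alb, the defining hepatocyte transcript, was listed at 0 in 4 libraries and at 29902 to 30888 in the others. The 4 were the second HFD-fed f/f, the first CD-fed LKO and both HFD-fed LKO libraries, so that the groups were not equally affected. Genes with such values were left out by the filter. Read counts behind the FPKM were not used here, so that the depth behind a single value is unknown.

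The diet response was shared in part between the genotypes. Across the 9839 genes, the HFD minus CD differences in f/f and in LKO livers, which share no library, had a Pearson's r of 0.62 and a Spearman's correlation coefficient of 0.47, and 65.5% of genes had the same sign. This is a description across genes, which are not independent replicates. With limma and Benjamini-Hochberg adjustment, 323 genes (3.28%) passed an adjusted p of 0.05 for HFD against CD in f/f, of which 99 were higher (1.01%) and 224 lower (2.28%) on HFD. In LKO 560 genes (5.69%) passed, 199 higher (2.02%) and 361 lower (3.67%). These counts lean on single libraries: leaving out any 1 of the f/f libraries left 16 to 70 genes in f/f, and leaving out any 1 of the LKO libraries left 94 to 320 in LKO.

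For the interaction itself no gene passed. In limma, 0 of 9839 genes (0%) had an adjusted p under 0.05, and the lowest was 0.14, for Angptl8. An unadjusted p under 0.05 was reached by 861 genes (8.75%), 405 with a positive (4.12%) and 456 with a negative interaction (4.63%), where a rate of 0.05 would give 492. The median interaction was −0.01. The interactions below are thus sizes with their errors, and none of them is established gene by gene with 2 libraries per group.

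To sort the patterns, a response was counted where HFD and CD means differed by at least 0.58 on the log2 scale (the log2 of 1.5) and the libraries of the diets did not overlap. By this rule 380 genes responded in f/f and 448 in LKO. Among them 189 responded in both in the same direction and 4 in opposite directions, namely Angptl8, Onecut1, Cpeb2 and the pseudogene Mup-ps14, which are named because they are few. A response was called lost where f/f responded and the LKO difference was below 0.29 in size (the log2 of the square root of 1.5). It was called gained where LKO responded and the f/f difference was below 0.29. It was called turned around where both differences exceeded 0.29 in opposite directions with libraries apart in both, and all 3 classes required an interaction of at least 0.58 in size, which 335 genes (3.4%) had. This gave 52 lost genes (0.529%), 73 gained genes (0.742%) and 27 turned-around genes (0.274%). The measured values chose these classes, so their sizes are descriptions. The smallest interaction inside the lost class was 0.59, for Cyp4a31, and the largest of those that missed only this limit was 0.58, for Syvn1. For the gained class the corresponding values were 0.59, for Ccdc85b, and 0.58, for Wsb1.

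**Figure D1:**
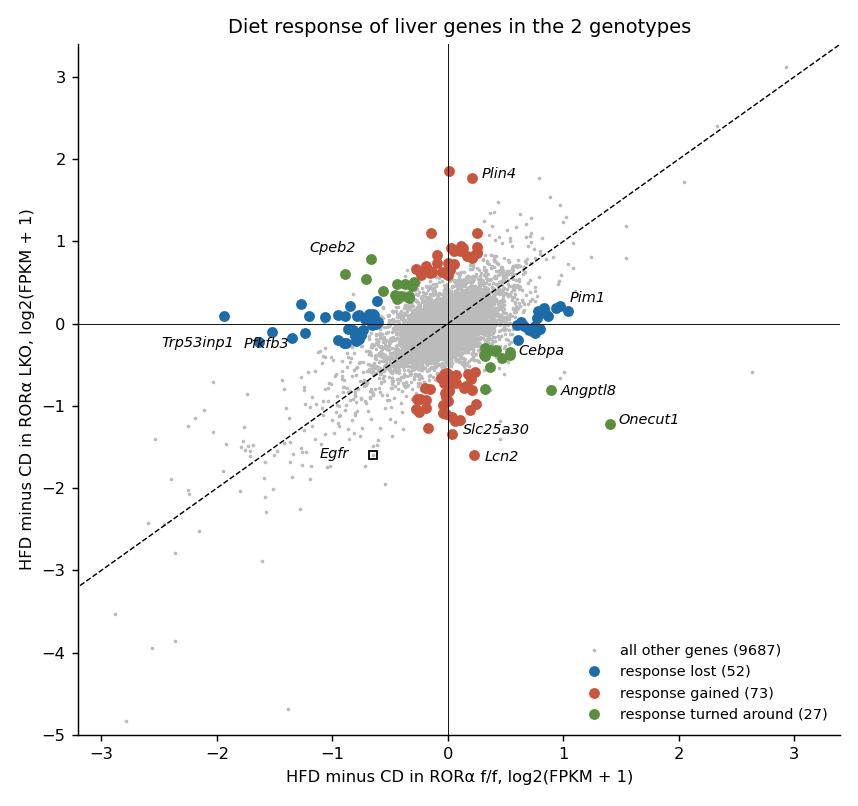
Diet response, HFD minus CD on log2(FPKM + 1), in RORα f/f livers (x axis) against RORα LKO livers (y axis) for the 9839 genes, with the dashed line marking equal responses. Genes on the line respond equally in both genotypes, the 52 lost genes (blue) lie along the x axis, the 73 gained genes (red) along the y axis and the 27 turned-around genes (green) in the quadrants of opposite sign. Egfr (open square) responded in both genotypes.

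Promoter windows were read for the classes because ROR sites and E-boxes are the elements through which RORα and the clock factors act. The motifs searched on both strands were TAGGTCA (the ROR core with the T before it) and CACGTG (an E-box), which do not overlap, in the RefSeq windows from 250 bases before to 50 bases after each start, on GRCm38.p6. Of the tested genes 7683 had a window, of which 2.53% held TAGGTCA and 12.4% held CACGTG. In the whole promoter table of 27025 genes the shares were 2.97% and 8.09%. Only 31 of the 52 lost and 51 of the 73 gained genes had a window, under 80%, so shares for these classes are void. Of the 27 turned-around genes 23 had a window, of which 0 held TAGGTCA and 3 held CACGTG, namely Mnt, Onecut1 and Sema6d. Of all 3 classes, TAGGTCA was found for Commd9, a lost gene. A match is a description of these letters and not a binding site, and the absence of a match says only that they are not in this window. One window with an E-box is shown for each class, the 250 bases before the start, from 5′ to 3′ on the strand of the gene, with the E-box in capitals. They are Pfkfb3 of the lost class (chr2:11502091-11502340, minus strand), Il6ra of the gained class (chr3:89913197-89913446, minus strand) and Onecut1 of the turned-around class (chr9:74861671-74861920, plus strand).
Pfkfb3: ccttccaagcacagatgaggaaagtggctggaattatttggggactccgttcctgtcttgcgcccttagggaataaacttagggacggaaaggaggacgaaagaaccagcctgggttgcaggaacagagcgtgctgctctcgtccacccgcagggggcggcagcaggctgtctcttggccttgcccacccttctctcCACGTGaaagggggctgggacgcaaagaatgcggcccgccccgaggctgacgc
Il6ra: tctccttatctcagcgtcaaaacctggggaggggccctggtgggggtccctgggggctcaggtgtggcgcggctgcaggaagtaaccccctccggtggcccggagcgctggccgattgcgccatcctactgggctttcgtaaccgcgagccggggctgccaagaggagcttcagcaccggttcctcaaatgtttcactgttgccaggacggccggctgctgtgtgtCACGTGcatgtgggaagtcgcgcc
Onecut1: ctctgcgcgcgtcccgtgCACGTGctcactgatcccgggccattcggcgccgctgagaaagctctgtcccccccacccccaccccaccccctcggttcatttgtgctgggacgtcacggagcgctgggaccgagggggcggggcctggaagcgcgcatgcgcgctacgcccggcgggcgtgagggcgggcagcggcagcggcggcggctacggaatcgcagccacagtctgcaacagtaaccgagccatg
The E-box lies 53 to 48 bases before the start in Pfkfb3, 24 to 19 bases in Il6ra and 232 to 227 bases in Onecut1. For Pfkfb3 the start shown lies inside the gene, which spans chr2:11471433-11554077, and not at its outermost 5′ end.

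The turned-around class included Angptl8, Srebf1, Cebpa, Onecut1 and Foxo1, which act in lipid handling, hepatocyte identity and insulin response. Angptl8, a secreted inhibitor of lipoprotein lipase that insulin and feeding induce, had the largest interaction relative to its error. Its FPKM was 13 and 9.56 in CD-fed f/f and 21 and 22.4 in HFD-fed f/f libraries, but 33.1 and 30.3 in CD-fed LKO and 17.5 and 17.9 in HFD-fed LKO libraries. It rose with HFD by 0.90 in f/f (SE 0.13, adjusted p = 0.020) and fell by 0.81 in LKO (SE 0.13, adjusted p = 0.016), which made an interaction of −1.70 (SE 0.18, unadjusted p = 1.4e-05, adjusted p = 0.14). On CD the LKO level was above that of f/f by 1.43 (SE 0.13, adjusted p = 0.020), and on HFD the difference was −0.28 (SE 0.13, adjusted p = 0.52). The gene is at chr9:21835510-21837347 of GRCm38, plus strand.

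Cebpa, which encodes the hepatocyte transcription factor C/EBPα, followed the same course. It read 73.6 and 65.9 on CD and 104 and 98.5 on HFD in f/f, and 100.1 and 93.7 on CD and 71.6 and 76.3 on HFD in LKO. The rise in f/f was 0.54 (SE 0.08, adjusted p = 0.022) and the LKO difference −0.39 (SE 0.08, adjusted p = 0.039), with an interaction of −0.92 (SE 0.12, unadjusted p = 5.3e-05, adjusted p = 0.17). Under quantile normalization Cebpa counted as lost rather than turned around, with an interaction of −0.87. The CD-fed LKO and the HFD-fed f/f libraries stood at one level, and the CD-fed f/f and the HFD-fed LKO libraries at a lower one. Srebf1, which encodes the activator of fatty acid synthesis SREBP-1, had 39.3 and 31.9 on CD and 40.4 and 49 on HFD in f/f, a difference of 0.32 (SE 0.13, adjusted p = 0.21). In LKO it was 59.6 and 54.7 on CD and 34.3 and 30.9 on HFD and fell by 0.79 (adjusted p = 0.016). Its interaction was −1.11 (SE 0.18, unadjusted p = 0.00027, adjusted p = 0.23).

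Onecut1, the gene of the liver transcription factor HNF6, had the largest interaction of all named genes, −2.62 (SE 0.72, unadjusted p = 0.0066, adjusted p = 0.49), with a size that depended on 1 library. Its FPKM was 5.39 and 4.17 on CD and 6.79 and 28.5 on HFD in f/f, and 12 and 13.3 on CD and 3.92 and 5.99 on HFD in LKO. The second HFD-fed f/f library stood far above all others. Without it the interaction was −1.66, and without the first HFD-fed f/f library it was −3.58. The libraries of the diets were still apart in each genotype, in opposite directions.

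Other genes turned the opposite way, with lower values on HFD in f/f and higher values in LKO. Cpeb2, an RNA-binding regulator of translation, read 20.4 and 19.6 on CD and 15.1 and 9.9 on HFD in f/f, and 10.4 and 12.1 on CD and 19.7 and 20.4 on HFD in LKO. The LKO rise was 0.79 (SE 0.17, adjusted p = 0.037), the f/f difference −0.66 (SE 0.17, adjusted p = 0.074) and the interaction 1.45 (SE 0.24, unadjusted p = 0.00027, adjusted p = 0.23). Cpeb2 in HFD-fed LKO livers thus stood at the level of CD-fed f/f livers. Cep85l had 9.16 and 8.45 on CD and 6.0 and 4.12 on HFD in f/f, and 3.79 and 3.55 on CD and 6.61 and 5.06 on HFD in LKO, with an interaction of 1.25 (SE 0.23, unadjusted p = 0.00068, adjusted p = 0.32). For Ip6k2, an inositol hexakisphosphate kinase, the interaction was 0.95 (SE 0.28, unadjusted p = 0.0092, adjusted p = 0.49), and for Arhgef3, a guanine nucleotide exchange factor, 0.81 (SE 0.14, unadjusted p = 0.00041, adjusted p = 0.27). Foxo1, the insulin-restrained activator of gluconeogenic genes, read 17.7 and 18.3 on CD and 14.9 and 12 on HFD in f/f, but 9.39 and 9.0 on CD and 11.5 and 12.3 on HFD in LKO. Its interaction was 0.74 (SE 0.15, unadjusted p = 0.0012, adjusted p = 0.38), and its CD level was lower in LKO by 0.90 (adjusted p = 0.044). Of the 27 genes of the class, 13 were higher (0.132% of all tested genes) and 14 lower (0.142%) on HFD in LKO. The adjusted diet test was passed by 2 in f/f and 6 in LKO, against 3.28% and 5.69% of all genes. The class was chosen by these same differences, so the counts are no test of it.

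**Figure D2:**
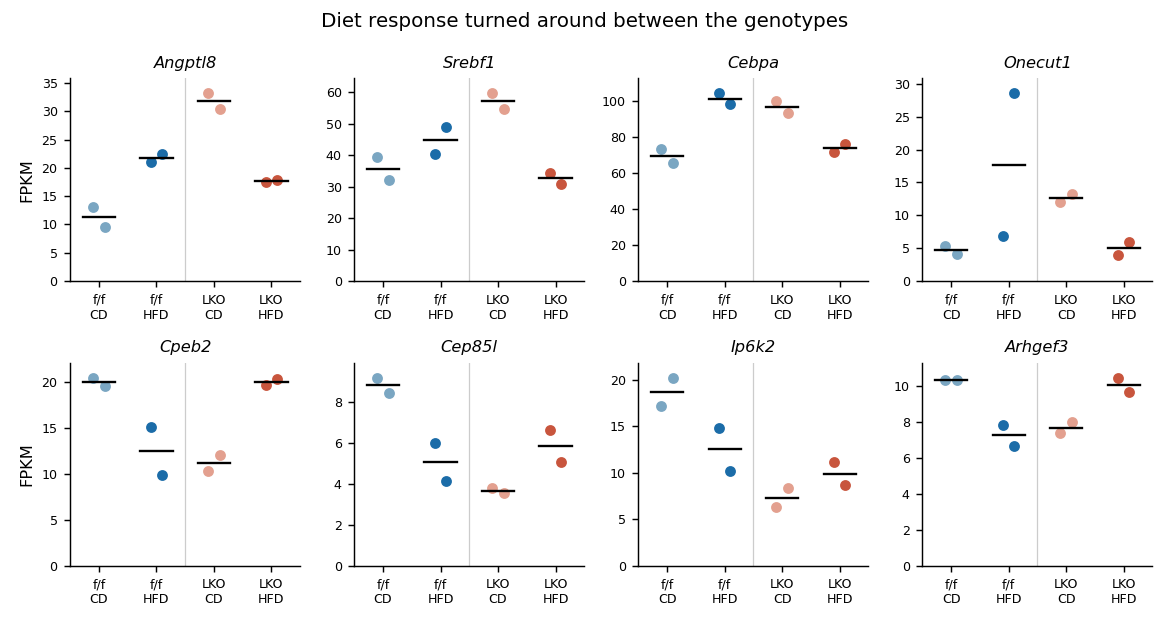
FPKM of 8 turned-around genes in each library (points) with group means (lines), for f/f on CD and HFD at left and LKO on CD and HFD at right of each panel. The top row shows genes higher on HFD in f/f and lower in LKO, and the bottom row the reverse, with the single high HFD-fed f/f library of Onecut1 at 28.5.

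Among the 52 genes with a lost response, 36 were lower on HFD in f/f (0.366% of all tested genes) and 16 higher (0.163%). The adjusted diet test in f/f was passed by 19 of them, against 3.28% of all genes. The class was chosen by this same difference, so the count is no test of it. By the naming rule the lower set was headed by Trp53inp1, Pfkfb3, Dnajb9 and Arrdc2. Trp53inp1, a stress-induced autophagy protein, had the clearest loss. It fell with HFD in f/f from 42.7 and 44.4 to 16 and 11.1, by 1.64 (SE 0.14, adjusted p = 0.0031), whereas LKO libraries read 24.4 and 22.8 on CD and 20.1 and 20 on HFD. Both LKO groups lay between the f/f groups, and the interaction was 1.41 (SE 0.20, unadjusted p = 0.00012, adjusted p = 0.23). The gene lies on chromosome 4 at chr4:11156431-11174379, plus strand.

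For several genes of this set the LKO values on both diets lay close to the HFD level of f/f. Pfkfb3, which makes the glycolytic activator fructose-2,6-bisphosphate, read 8.99 and 12.2 on CD and 4.46 and 3.33 on HFD in f/f, and 4.8 and 3.68 on CD and 4.35 and 3.3 on HFD in LKO. It fell in f/f by 1.24 (adjusted p = 0.021), and the interaction was 1.12 (SE 0.27, unadjusted p = 0.0031, adjusted p = 0.47). Dnajb9, a chaperone cofactor of the endoplasmic reticulum, read 60.7 and 97.1 in CD-fed f/f and 31.5 to 39.97 in all other libraries. It fell in f/f by 0.96 (adjusted p = 0.045), with an interaction of 1.06 (SE 0.28, unadjusted p = 0.0054, adjusted p = 0.49). Arrdc2, an arrestin-domain protein, read 12.3 and 8.76 in CD-fed f/f and 3.93 to 5.84 elsewhere, and its interaction was 1.05 (SE 0.24, unadjusted p = 0.0026, adjusted p = 0.46).

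Further genes of this set, outside the naming rule or named for a list, are given as examples. A fall in f/f with little change in LKO is a condition of the class. The genotype difference was larger in size on CD for 22 of the 36 genes and on HFD for 14. Ddit4, a stress- and glucocorticoid-induced inhibitor of mTORC1, read 10.7 and 8.22 in CD-fed f/f, 3.66 and 2.57 in HFD-fed f/f, 4.02 and 3.34 in CD-fed LKO and 4.16 and 2.33 in HFD-fed LKO libraries. Tsc22d3, the glucocorticoid-induced leucine zipper, fell in f/f from 107 and 108 to 71.3 and 62 (adjusted p = 0.030) and read 59.5 and 57.1 on CD and 72.1 and 55.4 on HFD in LKO. Phf11c, chosen after its values were seen, read 7.61 and 5.3 in CD-fed f/f and 1.83 to 2.21 elsewhere, and it was lower in LKO on CD by 1.33 (adjusted p = 0.040). Elovl5, an elongase of polyunsaturated fatty acids, differed from these. It fell in f/f from 171 and 238 to 97.4 and 120.5 (adjusted p = 0.043), while LKO libraries kept CD-like values of 200.1 and 197 on CD and 240.3 and 186 on HFD.

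In the set that was higher on HFD in f/f only, Inhbe, which encodes the hepatokine subunit inhibin βE, rose from 29.3 and 26.8 to 50.1 and 45.7 by 0.75 (SE 0.11, adjusted p = 0.020). LKO libraries already read 52.1 and 44.2 on CD and 44 and 50.2 on HFD, and the interaction was −0.78 (SE 0.15, unadjusted p = 0.00093, adjusted p = 0.36). Pim1, a serine/threonine kinase gene that cytokines induce, rose in f/f from 4.1 and 4.15 to 10.9 and 7.53 (adjusted p = 0.022) and read 9.18 and 7.74 on CD and 9.73 and 10.2 on HFD in LKO. Tbx3, a transcription factor of pericentral hepatocytes, read 5.96 and 5.79 on CD and 12 and 8.6 on HFD in f/f, and 11.6 and 8.62 on CD and 9.29 and 9.54 on HFD in LKO. In these genes the CD-fed f/f libraries were the lowest of all. Phlda1 was placed here by its means, but its HFD-fed LKO libraries read 10 and 27.9, so that its interaction of −0.86 (SE 0.58, unadjusted p = 0.17, adjusted p = 0.69) ranged from −0.17 to −1.56 with 1 of those libraries left out.

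Of the 73 genes with a gained response, 31 were higher on HFD in LKO (0.315% of all tested genes) and 42 lower (0.427%). The adjusted diet test in LKO was passed by 36 of them, against 5.69% of all genes. Here too the class was chosen by this same difference, so the count is no test of it. Plin4, a lipid droplet coat protein, read 3.65 and 3.97 on CD and 3.57 and 5.79 on HFD in f/f, and 2.59 and 3.77 on CD in LKO. It rose to 12.1 and 14.2 in HFD-fed LKO livers, by 1.77 (SE 0.20, adjusted p = 0.0067), and its interaction was 1.56 (SE 0.29, unadjusted p = 0.00061, adjusted p = 0.32). The 2 HFD-fed LKO libraries stood above the 6 others. The gene lies on the minus strand at chr17:56100591-56109803. Cdkn1a, which encodes the cell cycle inhibitor p21, had the largest positive interaction of the class, 1.85 (SE 0.31, unadjusted p = 0.00031, adjusted p = 0.24), and is named for this with its values seen. It was low, with 1.04 to 2.76 in 6 libraries, and rose to 6.41 and 8.89 in HFD-fed LKO livers (adjusted p = 0.0070).

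Other gained rises began from a CD level that was lower in LKO than in f/f. Il6ra, the interleukin 6 receptor α chain, read 18.6 and 18.7 on CD and 19.2 and 15.7 on HFD in f/f. In LKO it was 8.18 and 9.39 on CD, lower than f/f by 1.01 (adjusted p = 0.047), and rose on HFD to 15 and 17.8 (adjusted p = 0.014). Its interaction was 0.92 (SE 0.18, unadjusted p = 0.00076, adjusted p = 0.32). Ahr, the aryl hydrocarbon receptor, read 5.39 and 5.37 in CD-fed LKO libraries and 6.78 to 11 in the others, with an interaction of 0.94 (SE 0.27, unadjusted p = 0.0081, adjusted p = 0.49). Lpin1, a phosphatidate phosphatase of triglyceride synthesis that also acts in the nucleus, read 68.5 and 77.3 on CD and 68.8 and 77.4 on HFD in f/f. It rose in LKO from 17.5 and 18.8 to 27.6 and 34.2 by 0.73 (SE 0.12, adjusted p = 0.016) and stayed below f/f on HFD by 1.22 (adjusted p = 0.032). Nr1i3, the xenobiotic receptor CAR, read 209.9 and 149.7 on CD and 220.4 and 190.4 on HFD in f/f, and rose in LKO from 121 and 145 to 216 and 246 (adjusted p = 0.037). Cyp2c37 read 118 and 131 on CD and 167 and 246 on HFD in LKO, a difference of 0.70 (SE 0.20, adjusted p = 0.085). It belongs to a family of similar genes whose FPKM is uncertain.

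Several gained decreases began from a CD level above that of f/f. Slc25a30, a mitochondrial carrier, read 6.16 and 7.89 on CD and 5.13 and 9.95 on HFD in f/f. It fell in LKO from 17.4 and 25.8 to 7.53 and 8.03 by 1.34 (SE 0.27, adjusted p = 0.033), with an interaction of −1.38 (SE 0.39, unadjusted p = 0.0072, adjusted p = 0.49). Id2 and Id3, inhibitors of basic helix-loop-helix factors that BMP signalling induces, had the same shape. Id2 read 151 and 115 in CD-fed LKO libraries and 43.7 to 76.2 in all others, with an interaction of −1.28 (SE 0.40, unadjusted p = 0.013, adjusted p = 0.51). Id3 read 36 and 18.3 in CD-fed LKO libraries and 8.05 to 13.5 in the others, with an interaction of −1.25 (SE 0.49, unadjusted p = 0.033, adjusted p = 0.54). Without the first CD-fed LKO library it was −0.78. Timm17b, a subunit of the mitochondrial protein import channel, read 12.9 and 14.4 on CD and 14.9 and 16.9 on HFD in f/f, but fell in LKO from 18.9 and 19.3 to 9.84 and 11.2 (adjusted p = 0.0076). Its interaction was −1.02 (SE 0.14, unadjusted p = 9.9e-05, adjusted p = 0.23). Lcn2, the acute-phase protein lipocalin 2, had an interaction of −1.83 (SE 0.70, unadjusted p = 0.031, adjusted p = 0.54) but a wide spread, with 10.5 and 31.9 in HFD-fed f/f libraries, and was −1.07 without the second of these.

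**Figure D3:**
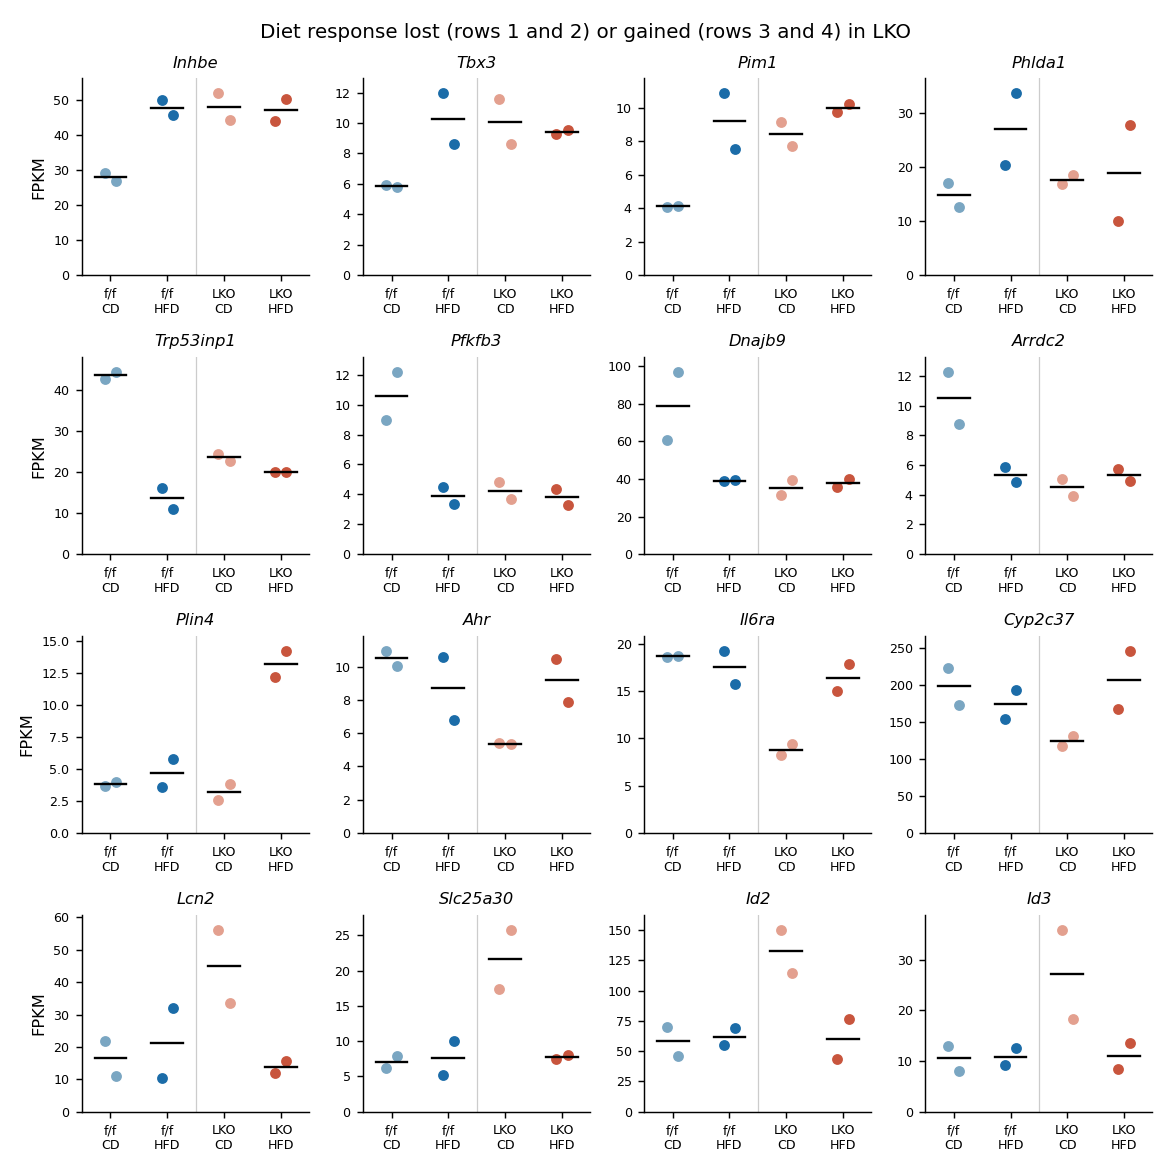
FPKM in each library (points) with group means (lines) for genes with a lost response (rows 1 and 2) and a gained response (rows 3 and 4), 4 in each direction. In rows 1 and 2 the CD-fed f/f libraries stand apart and the LKO groups lie close to each other, except for the wide spread of Phlda1, and in rows 3 and 4 an LKO group stands apart, on HFD for Plin4 and on CD for the others.

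A further group responded in both genotypes in the same direction but to a different degree. Egfr, the epidermal growth factor receptor of hepatocytes, fell in f/f from 98.3 and 104 to 61.4 and 67.4 by 0.64 (SE 0.09, adjusted p = 0.018). In LKO it fell from 108 and 110.1 to 33.3 and 37.6 by 1.59 (SE 0.09, adjusted p = 0.00071). The interaction was −0.95 (SE 0.12, unadjusted p = 5.2e-05, adjusted p = 0.17), among the 3 lowest unadjusted p values. On CD the difference between LKO and f/f was 0.10 (SE 0.09, adjusted p = 0.62), and LKO was lower on HFD by 0.84 (adjusted p = 0.032). Of the 335 genes with an interaction of at least 0.58, 29 responded in both genotypes in the same direction, and in 119 outside the 3 classes neither genotype met the rule for a response.

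In each class, the genotypes could stand apart on CD, on HFD or on both. For 33 of the 52 lost genes the LKO minus f/f difference was larger in size on CD, and for 19 on HFD. For the 73 gained genes the split was 32 on CD and 41 on HFD. For the 27 turned-around genes it was 18 on CD and 9 on HFD. LKO and f/f libraries did not overlap on CD for 35 lost, 47 gained and 24 turned-around genes, where 44.5% of all tested genes did not overlap. On HFD the counts were 29, 49 and 20, where 43.2% of all tested genes did not overlap. An interaction that enters both differences raises such counts by construction, so nothing is read from them about the classes.

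**Figure D4:**
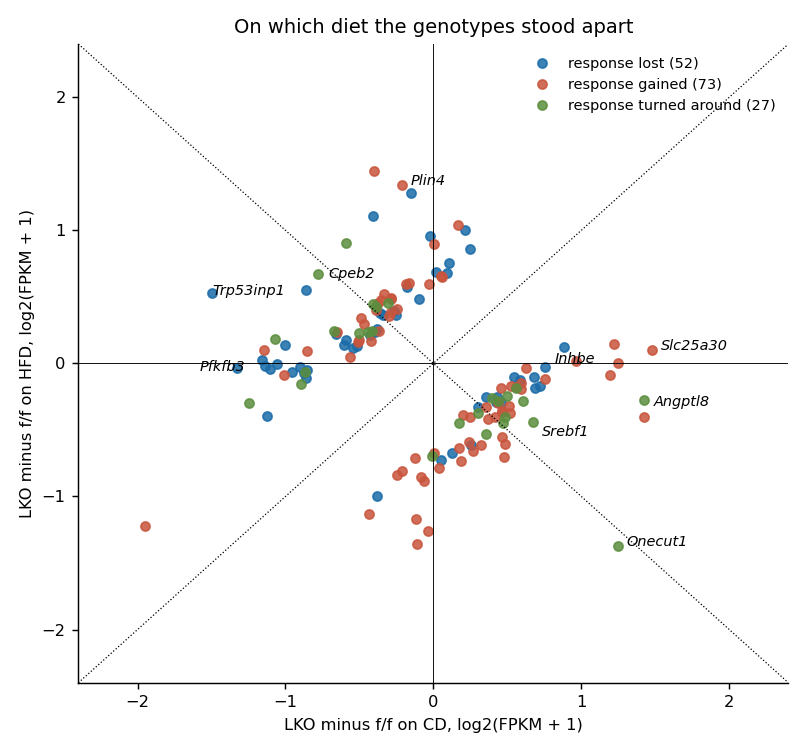
LKO minus f/f difference on CD (x axis) and on HFD (y axis), both on log2(FPKM + 1), for the 152 genes of the 3 classes. Points near the x axis, such as Pfkfb3, Inhbe and Slc25a30, differ between the genotypes mainly on CD, points near the y axis, such as Plin4, mainly on HFD, and points near the falling dotted line, such as Onecut1 and Cpeb2, on both diets in opposite directions.

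Gene lists compiled by hand, with earlier results of these data known, were then read against all tested genes, of which 8.75% had an unadjusted interaction p under 0.05 and whose median interaction was −0.01. No member of any list passed an adjusted p of 0.05 for the interaction. Of 20 tested genes of fatty acid synthesis, 6 had a negative interaction with an unadjusted p under 0.05 (Dgat2, Fasn, Mlxipl, Pklr, Srebf1 and Thrsp), 1 a positive one (Elovl5), and the median was −0.20. Fasn, fatty acid synthase, fell with HFD in both genotypes, from 45.2 and 45.8 to 19.5 and 24.5 in f/f (adjusted p = 0.037) and from 67.7 and 54.6 to 21.8 and 14.1 in LKO (adjusted p = 0.0067). Thrsp, a lipogenic activator that carbohydrate and thyroid hormone induce, fell in LKO from 114 and 109 to 33.3 and 23.5 (adjusted p = 0.028), and read 96.5 and 129.7 on CD and 47.4 and 123 on HFD in f/f, where the diets overlapped. Its interaction was −1.41, and −0.74 without the second HFD-fed f/f library. Pklr, liver pyruvate kinase, had an interaction of −0.88 (SE 0.29, unadjusted p = 0.016, adjusted p = 0.52). Without the second HFD-fed f/f library it was −0.56. Dgat2, which makes triglyceride, rose in f/f from 207 and 205 to 259.9 and 261 (adjusted p = 0.041) and read 205 and 214 on CD and 210.0 and 219 on HFD in LKO.

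Cholesterol synthesis kept its diet response in both genotypes. Of 24 tested genes 15 fell with HFD in f/f and 16 in LKO by the adjusted test, where 2.28% and 3.67% of all genes did, and 0 rose in either. The median interaction was 0.08. Idi1, isopentenyl-diphosphate isomerase, fell from 55.4 and 41.9 to 11.8 and 12.2 in f/f (adjusted p = 0.024) and from 37.1 and 48.7 to 22.3 and 9.62 in LKO (adjusted p = 0.041). Hmgcs1, the HMG-CoA synthase of this pathway, was the exception with an unadjusted interaction p under 0.05. It read 45.1 and 36.3 on CD and 36.1 and 33.3 on HFD in f/f, and 44.9 and 46.3 on CD and 97.4 and 53.7 on HFD in LKO, with an interaction of 0.87 (SE 0.33, unadjusted p = 0.031, adjusted p = 0.54). Without the first HFD-fed LKO library it was 0.45.

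Of 34 tested PPARα targets 29 had an interaction above 0, as did 4780 of all 9839 genes, with a median of 0.23, but 0 reached an unadjusted p under 0.05 in limma. By the adjusted diet test 3 rose with HFD in f/f and 6 in LKO, where 1.01% and 2.02% of all genes did. Of 16 tested genes of lipid droplets and PPARγ-linked fat storage 2 had an unadjusted p under 0.05, both positive, Plin4 and Cd36. Of all genes 4.12% were positive at this p, and the list median was 0.11. Cd36, a fatty acid translocase, rose in LKO from 28.9 and 19.5 to 63.7 and 60.1 (adjusted p = 0.026), and read 15.3 and 19.2 on CD and 17 and 29.3 on HFD in f/f, where the diets overlapped. Its interaction was 0.98 (SE 0.36, unadjusted p = 0.026, adjusted p = 0.52). Without the first HFD-fed f/f library it was 0.60.

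Among xenobiotic enzymes, 10 of 21 tested genes had a positive interaction with an unadjusted p under 0.05 and 0 a negative one, and the median was 0.42. In all genes the positive share was 4.12%. They were Cyp2b10, Cyp2c29, Cyp2c37, Cyp2c38, Cyp2c39, Cyp2c40, Cyp2c50, Cyp3a11, Cyp3a25 and Nr1i3, which is a receptor that the list includes. Some of the CYP2C and CYP3A genes are similar enough that their FPKM may share reads. In 6 of the 10 (Cyp2b10, Cyp2c29, Cyp2c40, Cyp2c50, Cyp3a11 and Cyp3a25) HFD values were below CD values in f/f. This difference was smaller in LKO, or not there. Cyp3a11, a target of the receptor PXR, fell in f/f from 1033 and 1045 to 214 and 298 by 2.04 (adjusted p = 0.0020), and in LKO from 1146 and 1234 to 522 and 431 by 1.32 (adjusted p = 0.0070). The interaction of Cyp3a11 was 0.71, and 0.47 without the first HFD-fed f/f library. Cyp2b10, a CAR target, fell in f/f from 10.2 and 11.4 to 1.63 and 1.86 (adjusted p = 0.0020) and in LKO from 6.13 and 5.7 to 3.03 and 1.78 (adjusted p = 0.015), with an interaction of 1.06 (SE 0.24, unadjusted p = 0.0020, adjusted p = 0.44). Of 18 genes of bile acid synthesis and transport 2 had a positive interaction with an unadjusted p under 0.05, Abcc2 and Cyp8b1, and 1 a negative one, Nr1h4, with a median of 0.09. Cyp8b1, the sterol 12α-hydroxylase, read 228 and 285 on CD and 158 and 109.7 on HFD in f/f, and 194 and 261 on CD and 233 and 166 on HFD in LKO. Its interaction was 0.76, and 0.49 without the second HFD-fed f/f library.

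Acute-phase genes leaned the other way, with 21 of 23 interactions below 0, against 5059 of all 9839, and a median of −0.52. Of these 6 had an unadjusted p under 0.05, Hp, Hpx, Itih3, Lcn2, Mt2 and Socs3, where 4.63% of all genes were negative at this p. By the adjusted test 3 fell with HFD in f/f and 9 in LKO, where 2.28% and 3.67% of all genes did, and 5 were in the gained class, which held 0.742% of all genes. Hp, the hemoglobin scavenger haptoglobin, fell in LKO from 2633 and 2365 to 1326 and 1449 (adjusted p = 0.014) and read 2047 and 1599 on CD and 1758 and 1811 on HFD in f/f. Saa1, serum amyloid A, fell in both genotypes, from 473 and 299.9 to 41.2 and 127 in f/f (adjusted p = 0.039) and from 725 and 726 to 38.9 and 62 in LKO (adjusted p = 0.0074). It has a near-identical neighbour, Saa2, and its interaction was −1.50 (SE 0.66, unadjusted p = 0.053, adjusted p = 0.57). Without the first or the second HFD-fed f/f library it was −2.29 or −0.70. The interaction of Saa2 was −1.38, and −2.52 or −0.25 with these libraries left out in the same order. For Orm2 it was −0.98, and −1.53 or −0.43, and for Lcn2 −1.83, and −2.58 or −1.07. The sizes of these interactions thus depended on single HFD-fed f/f libraries. Socs3, a feedback inhibitor of interleukin 6 signalling, read 4.1 and 3.24 on CD and 1.46 and 2.45 on HFD in LKO, and 1.55 and 1.97 on CD and 2.18 and 2.14 on HFD in f/f. The LKO difference was −0.68 (SE 0.17, adjusted p = 0.065).

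Of 19 tested genes of growth hormone action and male-biased expression, 5 had a negative interaction with an unadjusted p under 0.05, where 4.63% of all genes did. They were Hsd3b5, Igfals, Mup20, Serpina1e and Socs2. A positive one was found for 0, where 4.12% of all genes had one, and the list median was −0.23. Hsd3b5, a male-specific steroid enzyme, read 70.8 and 60.5 on CD and 84.1 and 66.5 on HFD in f/f, and fell in LKO from 59.5 and 61.7 to 23.8 and 34.3 by 1.06 (adjusted p = 0.017). Its interaction was −1.25 (SE 0.25, unadjusted p = 0.00099, adjusted p = 0.36). Serpina1e, an α1-antitrypsin copy with near-identical paralogs, fell in both genotypes, from 7083 and 5184 to 2779 and 1413 in f/f and from 5276 and 6070.0 to 779 and 751 in LKO (adjusted p = 0.029 and 0.0058). Its interaction of −1.27 was −0.79 without the first HFD-fed f/f library.

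Of 15 listed core clock genes 12 were tested. The filter left out Arntl, which encodes BMAL1 and read 0.22 to 1.93 over the 8 libraries, and Npas2, among others. Of the 12 tested genes 2 had a negative interaction with an unadjusted p under 0.05, Bhlhe40 and Per3, and the median was −0.16. At this p 4.63% of all genes were negative and 4.12% positive. Per3, a period gene of the clock's negative limb, read 8.8 and 8.99 on CD and 8.3 and 9.48 on HFD in f/f, and fell in LKO from 7.88 and 10.6 to 3.99 and 5.55 (adjusted p = 0.030). Bhlhe40, a repressor that binds E-boxes, read 52.4 and 30.9 on CD and 33.7 and 37.5 on HFD in f/f, and fell in LKO from 60.9 and 53.1 to 22.8 and 23.2 (adjusted p = 0.016). The interaction of Bhlhe40 was −1.09, and −0.72 without the second CD-fed f/f library. Nr1d1, which encodes REV-ERBα, a competitor of RORα for the same sites, kept its response, rising from 28.1 and 26.5 to 65.6 and 48.3 in f/f and from 23.7 and 23.8 to 55.5 and 64 in LKO (adjusted p = 0.018 and 0.0067). Among 12 clock output genes Dbp and Tef had negative and Noct a positive interaction with an unadjusted p under 0.05, with a median of −0.16. Dbp read 45 and 40.5 on CD and 72.3 and 58.5 on HFD in f/f, and 28.9 and 36.8 on CD and 28.5 and 36.2 on HFD in LKO. Noct, the rhythmically expressed nocturnin, fell in both genotypes, by 1.24 in f/f (adjusted p = 0.0019) and by 0.81 in LKO (adjusted p = 0.0064). The time of day and the feeding state at which mice were killed are not given in the sources used here, and their part in these genes was not tested.

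Stress and nutrient lists were mixed in direction. Of 9 tested genes of the integrated stress response 2 had a positive interaction with an unadjusted p under 0.05, Ddit4 and Sesn2, and 1 a negative one, Atf5, with a median of 0.05. In the lists that follow, the members called positive or negative are those that reached this unadjusted p, which 4.12% of all genes did as positive and 4.63% as negative. Of 18 chaperones of the endoplasmic reticulum 2 were positive, Dnajb9 and Herpud1, and 1 negative, Xbp1, with a median of 0.07. Of 16 glucocorticoid and immediate early genes 3 were positive, Cdkn1a, Tsc22d3 and Zfp36, and 2 negative, Dusp1 and Klf10, with a median of 0.09. In gluconeogenesis and insulin response, 2 of 14 were positive, Foxo1 and Ppargc1a, and 1 negative, Sik1, with a median of −0.03. G6pc, glucose-6-phosphatase, fell in both genotypes, from 246 and 298 to 53.1 and 59.7 in f/f and from 262 and 297 to 73.8 and 61.9 in LKO (adjusted p = 0.0010 and 0.00077), with an interaction of 0.22 (SE 0.18, unadjusted p = 0.26, adjusted p = 0.75). Of 28 amino acid and urea enzymes 2 were positive, Bhmt and Tat, and 4 negative, Gls2, Got1, Prodh and Sds, with a median of −0.10. Tat, tyrosine aminotransferase, a glucocorticoid target, fell in f/f from 876 and 1036 to 322 and 250.4 and in LKO from 480.4 and 586 to 302 and 284 (adjusted p = 0.0030 and 0.019), and its interaction was 0.89 (SE 0.21, unadjusted p = 0.0028, adjusted p = 0.47).

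In the remaining lists the medians lay between −0.11 and 0.15. Of 16 heat shock genes 1 had an unadjusted p under 0.05, as 8.75% of all genes did. It was Dnaja1, which was positive, and the list median was 0.06. Of 16 genes of antioxidant defense 0 had one in limma, with a median of 0.06. Of 4 tested cell cycle genes 1 was positive, Ccnd1, and the median was −0.11. Of 13 mitochondrially encoded transcripts 0 had an unadjusted p under 0.05, and their median of 0.15 became −0.17 under quantile normalization, so that no direction is given for them. Of the list mt-Nd4l was a lost gene, with an interaction of −0.75 (SE 0.35, unadjusted p = 0.065, adjusted p = 0.59). The mitochondrial ribosomal RNAs, which are not on the list and were chosen after their values were seen, were in the classes. mt-Rnr2, a gained gene, read 564 and 647 on CD and 496 and 532 on HFD in f/f, and 457 and 467 on CD and 667 and 722 on HFD in LKO, with an interaction of 0.82 (SE 0.13, unadjusted p = 0.00025, adjusted p = 0.23). For mt-Rnr1, turned around but gained under quantile normalization, the interaction was 0.85 (SE 0.16, unadjusted p = 0.00085, adjusted p = 0.35). Of 23 genes of interferon and antigen presentation 2 were positive, Cd74 and H2-Eb1, and 1 negative, Tap2, with a median of 0.14.

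**Figure D5:**
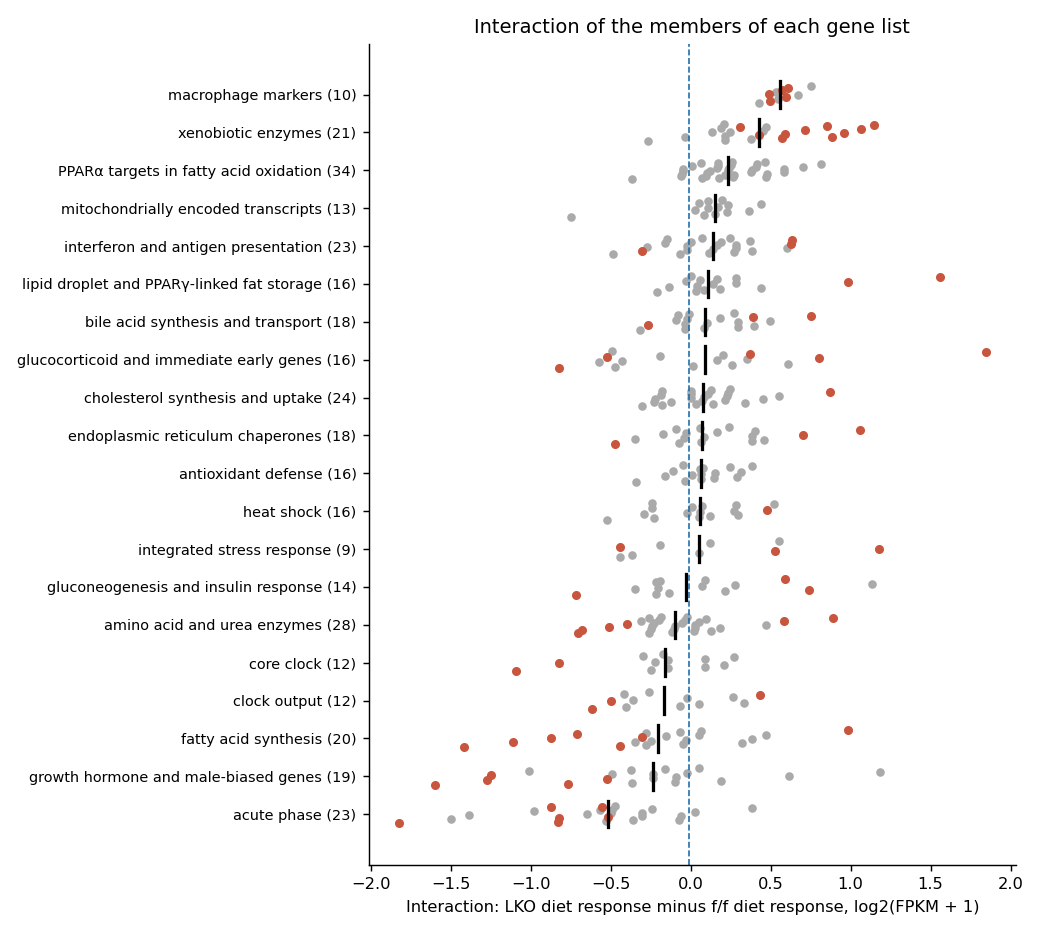
Interaction on log2(FPKM + 1) of each tested member (points) of the gene lists with at least 5 tested members and of the macrophage markers. The number tested is in brackets, the list median is a black bar and members with an unadjusted p under 0.05 are red. The other marker lists are not drawn, among them the erythroid markers with a median of −0.68. The dashed line is the median of all 9839 genes, −0.01, and the medians drawn run from −0.52 for acute-phase genes to 0.56 for macrophage markers.

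Markers of other cells moved with the groups in part. All 10 tested macrophage markers of 12 listed had a positive interaction, of 0.43 to 0.75 with a median of 0.56. Of all 9839 genes 4780 had one above 0. An unadjusted p under 0.05 was reached by 5 markers, C1qa, C1qb, C1qc, Clec4f and Vsig4, where 4.12% of all genes were positive at this p. The median HFD minus CD difference of the 10 markers was −0.42 in f/f and 0.12 in LKO. Summed FPKM of the 12 markers was 165 to 200 in CD-fed f/f, 119 to 146 in HFD-fed f/f, 149 to 165 in CD-fed LKO and 144 to 208 in HFD-fed LKO libraries. Cd74 of the interferon and antigen presentation list ran alongside, with 34.8 and 43.3 on CD and 23.1 and 31.2 on HFD in f/f, and 32.3 and 35.5 on CD and 35.7 and 37.5 on HFD in LKO. Timd4, a receptor of resident macrophages, is on no list here and was chosen from the lost class after its values were seen. It read 3.98 and 4.52 on CD and 2.57 and 2.15 on HFD in f/f, and 3.3 and 2.97 on CD and 3.64 and 3.0 on HFD in LKO. The class requires such a course, so Timd4 adds nothing to the markers. In pooled whole liver fewer cells of a type and less RNA per cell cannot be told apart. All 7 tested stellate cell and fibroblast markers of 12 had an interaction above 0, with a median of 0.35 and 0 with an unadjusted p under 0.05. All 5 tested erythroid markers of 8 had one below 0, with a median of −0.68 and 0 with an unadjusted p under 0.05. Among all 9839 genes 4780 were above 0 and 5059 below. Summed erythroid FPKM ranged from 65.8 to 504. The median was 0.08 for 8 endothelial markers and −0.13 for 11 hepatocyte markers, among which Tat had an unadjusted p under 0.05. Of 8 adipocyte markers 3 were tested, all with an interaction above 0 and a median of 0.17, and Car3 among them is a lost gene with an unadjusted p under 0.05. Summed FPKM of the 8 was 838 to 1839, although 4 of them were under 1 in all libraries. These values are therefore not read as a sign of adipocytes. Of the 11 lymphocyte, 6 cholangiocyte, 14 exocrine pancreas and 6 intestine or gall bladder markers 1 each was tested, with an interaction of −1.64, 0.02, −0.42 and 0.28. Of the 14 exocrine pancreas markers 8 were at 0 in all libraries, among them Prss1, Cpa1 and Pnlip. Of 8 neutrophil and 6 muscle markers 0 were tested, with Ly6g and Camp and with Acta1 and Tnnt3 at 0 in all libraries, and the summed FPKM was 0.97 to 2.88 for neutrophil and 0.18 to 1.03 for muscle markers. The part of these cells in the genes above was not tested.

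Some members of the classes rested on 1 library. The gene ENSMUSG00000093077, which has no symbol in GENCODE M21, had the largest interaction of the lost class, 2.03 (unadjusted p = 0.11). Its FPKM was 29131 and 183794 in CD-fed f/f libraries and 15648 to 42850 in the others, and it held 18.7% of the summed FPKM of the second CD-fed f/f library. Rpph1, the RNA of ribonuclease P, read 3.82 and 19.9 in CD-fed f/f and 2.59 to 9.74 elsewhere. The protein-coding members numbered 41 of 52 lost, 66 of 73 gained and 23 of 27 turned-around genes. Under quantile normalization 48 of the 52, 66 of the 73 and 21 of the 27 stayed in their class. Besides Cebpa and mt-Rnr1, the genes given above that left their class were Cyp4a31, Hp, Mnt and Rpph1.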

How the data were processed

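Liver RNA of 8 libraries, 2 for each of 4 groups (RORα f/f or RORα LKO, on CD or HFD), was analysed as the libraries are labelled. The authors selected poly(A) RNA, trimmed and aligned the reads to GRCm38 and estimated expression per gene, and the deposited values are FPKM, not on a log scale. The submitters' processing notes name cutadapt 1.0, TopHat2 2.0.7 and Cufflinks. The annotation used is not given in the sources used here, and reads could not be recovered from FPKM, so that tests on counts were not run. Reads shared by near-identical genes (Mup, Cyp2c, Cyp3a, Cyp4a, Saa, Hba and Hbb, Acot) make their FPKM uncertain.

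Genes with FPKM above 1 in all 8 libraries were kept, 1 was added and the log2 taken, with no further normalization. This scale understates changes of low genes. limma 3.58.1 in R 4.3.3 fitted the 4 groups together with a mean-variance trend, on 4 residual degrees of freedom to which moderation added 4.02, and p values were adjusted over 9839 genes within each contrast. Symbols came from GENCODE M21, which matched 9753 of them. On simulated data of 9839 genes, 200 of them with a changed interaction, limma found 96% of genes changed by 2 (log2) and 68% of those changed by 1. Of its 172 calls 8 were false. The values were drawn independently from a normal distribution around 1 mean per gene. The adjusted p grows stricter where fewer genes are changed. These shares are thus not the power of the test in the real data, where no gene passed. Figures were drawn with matplotlib 3.10.9.

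The classes, the 20 gene lists and the 12 marker lists were chosen with earlier results of these data known. The genes named are protein-coding, have a symbol that is not a provisional gene model (Gm, Rik and the like) and a mean FPKM of at least 5. They are the 4 with the largest absolute interaction in each class and direction, the 5 with the lowest interaction p and the 4 with the largest absolute interaction in each list. A gene that this rule names is not reported here. Others are named where a count is small, as members of a list, or where the text says so.

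Libraries carry replicate numbers 1 and 2, with nothing that links same-numbered pools. Departures from the group mean were compared between libraries of one number, which gave Pearson's r of −0.06 to 0.02 over 6 pairs of groups, so the numbers were not taken to pair the samples. The alternatives were quantile normalization, centring on the median, a pseudocount of 0.1, looser filters, the replicate block, no trend, a fold threshold of 2 and each library left out in turn.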

Additional observations from a re-analysis of the deposited data

How the results depend on the processing

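The fold threshold, pseudocount and filter set how many genes fell into each class, and no alternative on the same genes and libraries produced a gene past the interaction test. Quantile normalization, centring on the median and limma without the trend kept every count of calls and classes within 1.5 times. A pseudocount of 0.1 gave 101 lost, 124 gained and 53 turned-around genes, and a threshold of log2 of 2 gave 8, 15 and 5. Where FPKM had to exceed 1 in only 1 library, 4 genes passed the interaction test, all listed at 0 in some library, 165 passed the diet test in f/f, and the classes held 94 lost and 54 turned-around genes. Where FPKM had to exceed 0 in only 1 library, 19 genes passed the interaction test, again all listed at 0 in some library, 42 passed the diet test in f/f and 121 in LKO, and the classes held 103, 110 and 61 genes. The 52, 73 and 27 genes all kept their class under both filters.

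With 1 library left out, the lone library is assumed to vary like the others and cannot overlap with itself, which loosens the classes. The interaction test then called 0 to 3 genes, namely Angptl8 without the first CD-fed f/f library and Cpeb2, Onecut1 and Trp53inp1 without the first HFD-fed f/f library. The diet test called 16 to 283 genes in f/f and 94 to 449 in LKO. The f/f count was 70 and 16 without the first and the second CD-fed f/f library, and 36 and 43 without the first and the second HFD-fed one. The LKO count was 320 and 94 without the first and the second CD-fed LKO library, and 103 and 131 without the first and the second HFD-fed one. Lost genes numbered 38 to 124, gained genes 65 to 112 and turned-around genes 35 to 72.

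The sign of the interaction of a named gene turned in few cases. Quantile normalization gave −0.48 for mt-Atp8 and −0.17 for mt-Nd2, and a median of −0.17 for the mitochondrially encoded transcripts. With single libraries left out, Creld2 ranged from −0.031 (without the second CD-fed f/f library) to 0.95, Cth from −0.062 (without the first HFD-fed f/f library; −0.014 without the second HFD-fed LKO library) to 0.16, Bcl6 from −0.22 (without the second HFD-fed f/f library) to 2.58, Acot3 from −0.15 (without the first CD-fed LKO library) to 1.10 and Idi1 from −0.12 (without the first HFD-fed LKO library) to 1.02. The causes were not tested.

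The replicate number as a block, although the numbers were not shown to pair the samples, gave 0 genes for the interaction, 253 for the diet in f/f and 424 in LKO.

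With 2 pools per group, an exact permutation test of a single gene could not pass, and the depth behind an FPKM is unknown. Genes at or below an FPKM of 1 in any library, among them 1795 that were above 1 in some, were not tested in the main comparison, so that genes switched on or off entirely are not described. Pools of whole liver do not separate cell types. The genotype labels could not be checked by Rora on HFD.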
